A study of Mus musculus with 6 samples.

Results

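Single-cell RNA sequencing of the mouse olfactory bulb was read here for 7 subunit genes of the GABA-A receptor. The genes were Gabra2, Gabra3, Gabra4 and Gabra5, which encode alpha subunits, Gabrb1 and Gabrb2, which encode beta subunits, and Gabrg1, which encodes a gamma subunit. They were taken by name from the table of raw counts, and all 7 had a row among its 18560 genes. Their levels were followed over 18 clusters of neurons and the nonneuronal clusters named by the authors, above all from the immature cluster n04 to the clusters along the paths of adult-born interneurons. The samples were 6 libraries of C57BL/6NJ bulbs at 14 weeks of age, each from a pool of 3 mice. Control, naris-occluded and trained mice gave 2 libraries each. The labels give no sex, but replicate 1 of each group, by the library column of the annotation, held at most 5 UMIs of Xist and replicate 2 at least 20000, with Ddx3y, a Y-linked gene, at 0 in replicate 2, so that sex and replicate number cannot be told apart. Occlusion closed a nostril for 6 weeks and training lasted 6 weeks in an odor discrimination task. The labels call the control mice unmanipulated, the text of the study speaks both of naive controls and of the open side as the control for occlusion, and the files do not settle which tissue was used. Expression alone places the cells along the path of maturation, since no lineage label marks the adult-born cells in these libraries.

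The GABA-A receptor is a chloride channel of 5 subunits that opens when GABA binds. Most receptors combine alpha and beta subunits with a gamma or a delta subunit, GABA binds between alpha and beta, and benzodiazepines bind between alpha and gamma. The alpha subunit sets where the receptor sits and how fast it closes: receptors with alpha-5, and those with alpha-4 and delta, are known for tonic currents outside the synapse, while alpha-2 and alpha-3 are typical of receptors at synapses. In the olfactory bulb, granule cells and periglomerular cells are inhibitory interneurons that release GABA onto mitral and tufted (M/T) cells and onto each other, and GABA acts on migrating immature neurons before their synapses form.

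Of these genes, 4 are neighbours on mouse chromosome 5, in the order Gabrg1, Gabra2, Gabra4 and Gabrb1, which span positions 70751047 to 72149572 of GRCm38. Gabra4 and Gabrb1 point away from each other, and their 5′ ends overlap by 388 bases. Gabra5 lies on chromosome 7 (57407669 to 57591016), Gabrb2 on chromosome 11 (42419515 to 42632591) and Gabra3 on chromosome X (72432676 to 72656919). The RefSeq promoter windows of the neighbours on chromosome 5, each from 250 bases before to 50 bases after a start of transcription on the strand of the gene, are shown because these adjacent genes had different patterns over cell types. They are chr5:70842568-70842867 for Gabrg1, chr5:71095800-71096099 for Gabra2 and chr5:71658259-71658558 for Gabra4, all on the minus strand, and chr5:71657671-71657970 for the first of the listed starts of Gabrb1, on the plus strand. Capitals mark CCAAT and GGGCGG (the CCAAT box and the GC box) on either strand, that is also ATTGG and CCGCCC.
Gabrg1: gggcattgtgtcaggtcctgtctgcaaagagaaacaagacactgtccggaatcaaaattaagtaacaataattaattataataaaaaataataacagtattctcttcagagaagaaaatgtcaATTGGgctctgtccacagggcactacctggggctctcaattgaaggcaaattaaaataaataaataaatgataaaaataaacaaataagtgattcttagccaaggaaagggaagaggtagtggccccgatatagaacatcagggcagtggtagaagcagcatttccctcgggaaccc
Gabra2: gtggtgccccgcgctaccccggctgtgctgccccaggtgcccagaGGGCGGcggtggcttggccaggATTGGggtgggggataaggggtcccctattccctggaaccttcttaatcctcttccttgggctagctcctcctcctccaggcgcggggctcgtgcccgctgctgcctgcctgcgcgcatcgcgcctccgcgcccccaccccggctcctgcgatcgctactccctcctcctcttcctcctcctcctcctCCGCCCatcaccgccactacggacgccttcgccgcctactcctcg
Gabra4: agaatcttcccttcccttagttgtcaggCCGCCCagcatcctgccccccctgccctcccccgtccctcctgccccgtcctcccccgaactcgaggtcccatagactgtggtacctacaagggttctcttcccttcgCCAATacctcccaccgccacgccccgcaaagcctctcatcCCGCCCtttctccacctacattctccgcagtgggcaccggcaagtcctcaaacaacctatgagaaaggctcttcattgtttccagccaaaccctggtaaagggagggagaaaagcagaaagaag
Gabrb1: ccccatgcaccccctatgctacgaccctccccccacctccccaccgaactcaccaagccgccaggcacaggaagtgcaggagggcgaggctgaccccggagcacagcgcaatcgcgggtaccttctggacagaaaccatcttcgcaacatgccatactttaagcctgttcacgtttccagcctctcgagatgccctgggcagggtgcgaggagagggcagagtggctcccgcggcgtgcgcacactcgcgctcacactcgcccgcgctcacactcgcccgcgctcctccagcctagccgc
Gabrg1 held 1 CCAAT match and no GC box, Gabra2 and Gabra4 each held 1 CCAAT match and 2 GC boxes, and the Gabrb1 window held neither. The Gabrg1 window had a GC content of 38.3%, against 70% for Gabra2, 58.7% for Gabra4 and 66% for Gabrb1. Of all 32851 RefSeq windows of this length, 37.4% held CCAAT and 35.7% held a GC box on either strand. No match overlapped another, and a match is a description of these letters only.

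The count table held 52549 barcodes, of which 51426 had a cluster. Names of nonneuronal clusters are those of the deposited annotation, and some numbers differ from those in the supplement of the study. By cell numbers, Astro2 (336 cells) and Astro3 (1780 cells) are Astro3 and Astro2 there. The olfactory ensheathing clusters OEC2 (1740 cells) and OEC3 (3240 cells) are OEC5 and OEC4 there. The libraries had totals of 11841160 to 17065083 unique molecular identifiers (UMIs, which count captured molecules), and 2.93% of the barcode sequences occurred in more than 1 library. The immature markers Dcx, Sox11 and Dlx2 had their highest mean in n04 (Sox11 2085 CPM, UMIs per 1000000 of the cluster, against 232 CPM in the next cluster), Cdhr1 and Slc17a7 in n17-M/TC-3, and Aqp4, Gja1 and Slc1a3 in Astro1. Of the same lists, Tbx21 was highest in n15-M/TC-1 (31.9 CPM), Eomes in n16-M/TC-2 (739 CPM) and Gfap in Astro2 (908 CPM). Each of these markers thus peaked in a cluster labelled as its cell type, though not always in the same one. Levels below are CPM of the UMIs summed over a cluster in a library, given as mean ± SD over the 6 libraries (n = 6). Each molecule is tagged near its 3′ end, so counts were not divided by length, and levels are compared between clusters rather than between genes. The clusters were drawn from the expression of these cells, so levels between clusters are a description with no test.

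Summed over the clusters of each path of maturation, all 4 alpha genes, Gabrb1 and Gabrg1 were higher than in n04, and Gabra5 had the largest log2 ratio. The study orders adult-born neurons along a pair of paths from n04, axis A (n02, n03, n05, n08, n10, n11, n12 and n14) and axis B (n06, n07 and n09). Of these, it describes n05 and n12 as made earlier in life and little renewed in adults, so they may hold few adult-born cells. The study takes n06-Transition, of axis B, as likely immature, and it held 445 CPM of Dcx against 907 CPM in n04. The summed level of Dcx, Sox11 and Dlx2 was 573 ± 93.2 CPM in n06, against 3438 CPM in n04. That of n06 was near those of n10 (527 CPM) and n11 (525 CPM) on axis A. The mean log2 ratio of axis A over n04, computed in each library with a pseudocount of 1 CPM, was 3.08 ± 0.51 (SD, n = 6) for Gabra5, 1.99 ± 0.49 for Gabra3, 1.97 ± 0.38 for Gabra4 and 1.58 ± 0.22 for Gabra2. It was 1.69 ± 0.47 for Gabrb1 and 1.68 ± 0.50 for Gabrg1. On axis B the ratios were 3.53 ± 0.62 for Gabra5, 2.82 ± 0.56 for Gabra3, 2.38 ± 0.20 for Gabra4, 2.08 ± 0.18 for Gabra2, 1.90 ± 0.51 for Gabrb1 and 1.67 ± 0.94 for Gabrg1. Each of these 12 values was above 0 in all 6 libraries, which for Gabra3 and Gabrg1 is a description only, as given below. They hold for sums over an axis. The means of single clusters lay below n04 for Gabra3 (n02), Gabra4 (n09), Gabra5 (n03 and n05) and Gabrg1 (n14). For these 6 genes the means of all other clusters of the axes lay above it. Gabrb2 alone was not separated from 0, with 0.43 ± 0.79 on axis A and 0.45 ± 0.81 on axis B, and 23 UMIs in all of n04.

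**Figure D1:**
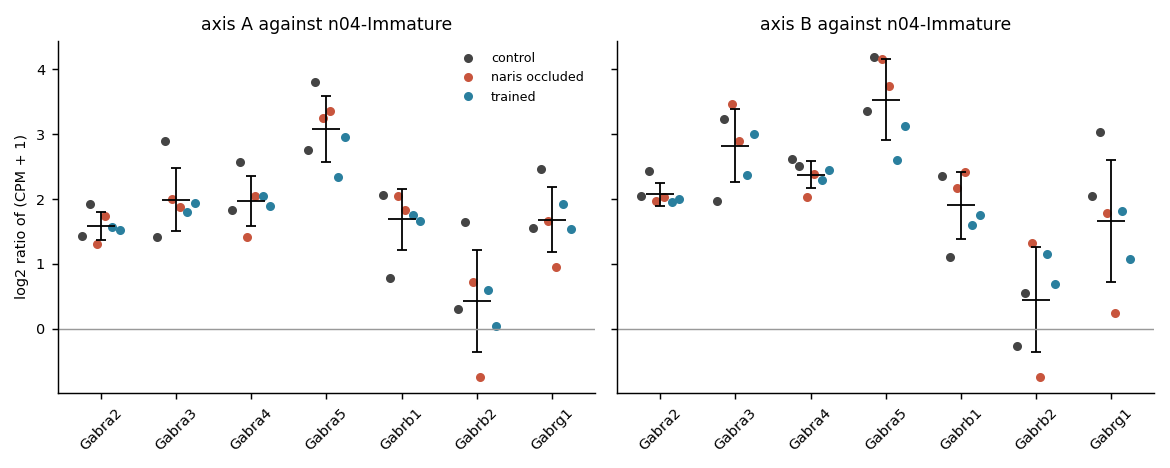
Log2 ratio of (CPM + 1) of each subunit gene in axis A (left) and axis B (right) over n04-Immature, with a point for each of the 6 libraries coloured by condition and bars for mean ± SD. Gabra5 is highest on both axes (3.08 and 3.53), and the libraries of Gabrb2 lie on both sides of 0.

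Of the 7 genes, Gabra2, Gabra4, Gabra5 and Gabrb1 reached 10 CPM in n04 itself, and these 4 had a log2 ratio of at least 1 on both axes, higher in 6 of 6 libraries. By the same rule 17.4% of the 9563 genes of at least 10 CPM were higher on axis A and 7.27% lower. On axis B 24.7% of 9917 genes were higher and 14.9% lower. These shares count genes that reached 10 CPM in n04 or in the axis. Gabra3 (7.20 CPM in n04, 30.1 CPM in axis A) and Gabrg1 (3.16 and 11.98 CPM) reached it through the axis alone, so the filter fixed their direction and their ratios are a description only. Gabrb2 never reached 10 CPM. The median log2 ratio was 1.83 on axis A and 2.23 on axis B with Gabra3 and Gabrg1 among the 6 genes, beside 0.13 and 0.18 for all genes of at least 10 CPM, and is likewise a description. The median depth per cell was 1668 UMIs in n04 and 882 UMIs in n07, the largest cluster of axis B, and mitochondrial UMIs were 8.87% and 17.3% of their totals. With mitochondrial genes left out of the total, the 12 ratios were between 1.58 and 3.66, and with cells of at least 1000 UMIs alone they were between 1.53 and 3.27.

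Gabra2, the alpha gene with the most UMIs in n04, had a higher mean in every cluster of both axes than in n04. In n04 the lowest, median and highest library held 71.7, 93.9 and 103 CPM. In n07-GC-2, of granule cells, they held 368, 446 and 481 CPM, so that every library of n07 was above every library of n04. The periglomerular clusters n08-PGC-3 and n02-PGC-1 had 383 ± 151 CPM and 280.1 ± 21.5 CPM, and the granule cell clusters n11-GC-5 and n03-GC-1 had 302 ± 17.4 CPM and 245 ± 17.5 CPM. It was lower in n10-GC-4 (126 ± 45.2 CPM) and in n05-PGC-2 (117 ± 17.9 CPM), the periglomerular cluster with the highest Gad2. These 2 clusters were the ones of both axes nearest to n04, with log2 ratios of 0.43 and 0.38. In the 3 M/T clusters Gabra2 was between 107 and 138 CPM.

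Gabra5 divided the clusters of axis A. In n04 the lowest, median and highest library held 7.69, 14.6 and 24.1 CPM. In n02, n03 and n05 the gene was near that level, with 15.4 ± 7.02 CPM, 13.4 ± 6.98 CPM and 14 ± 10.4 CPM and log2 ratios of 0.01, -0.19 and -0.25. In n10-GC-4 the libraries held 278, 385 and 429 CPM, the highest level of any cluster, followed by n11 with 250.2 ± 24.2 CPM, n14 with 209 ± 72.5 CPM, n12 with 171 ± 56.5 CPM and n08 with 129 ± 43.3 CPM. The lowest library of n10 was above the highest of n02, n03, n04 and n05. On axis B Gabra5 was 76.3 ± 7.12 CPM in n06-Transition and 238 ± 26.5 CPM in n07-GC-2, but 31.1 ± 23.1 CPM in n09-GC-3, where a library had no UMI. Outside the interneurons it was 58.7 ± 15.5 CPM in n13-AstrocyteLike (125 UMIs), 40.7 ± 43.7 CPM in n15-M/TC-1 (4 UMIs, with 2 libraries at 0), 20.01 ± 7.58 CPM in n17 and 7.25 ± 0.690 CPM in the astrocytes of Astro1.

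The share of cells with at least 1 Gabra5 UMI followed the levels. It was 44.4% in n10 and 2.30% in n04, and 16.2% and 0.793% after each cell was thinned to 500 UMIs, which left out no cell of either cluster. Red blood cells, which should lack the gene, gave 1.83% as deposited and 0.457% after thinning (219 cells, of which 1 held a UMI after thinning). Their median depth was 3894 UMIs, against 1728 in n10 and 1668 in n04. Of their UMIs a mean of 590490 per 1000000 were those of Hba-a1, Hbb-bs and Alas2, so fewer UMIs of other genes stand behind their shares than behind those of n10, n04, Astro1 and oligodendrocyte precursors, above all after thinning, and the background share is not at equal depth. The exact 95% Clopper-Pearson interval of that thinned share of Gabra5, for counting error only, was 0.0116% to 2.52%, around the n04 share of Gabra5. Gabra2 had 4.48% of n04 cells after thinning, and its own red blood cell interval is not given here. It was the member with the most UMIs in red blood cells, 15 UMIs or 17.1 CPM, against 89.5 CPM in n04. In n04 the thinned shares of Gabra3 (0.512%), Gabrb1 (0.767%) and Gabrg1 (0.179%) were near or below the 0.457%, 0.913% and 0.457% of red blood cells (1, 2 and 1 cells), and these and that of Gabra4 (0.614%) lay within the intervals of the red blood cell shares. The log2 ratios of all members but Gabra2 are therefore taken over a level in n04 that was not told apart from background at this depth. For Gabra2 this was not decided here.

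Gabra3 was the alpha subunit gene with the clearest peak outside the interneurons. In n17-M/TC-3, the largest mitral and tufted cluster, the lowest, median and highest library held 199, 246 and 297 CPM, all above the libraries of n18-EPL-IN, the next cluster (125 ± 30.8 CPM). In n04 it was 7.20 ± 3.20 CPM, and in n02 and n03 6.31 and 8.94 CPM. Among the clusters of both axes n08 (99.3 ± 45.6 CPM), n14 (87.9 ± 29.2 CPM) and n07 (69.2 ± 8.41 CPM) had the highest means. The other M/T clusters held few UMIs of the gene, 14 in n15-M/TC-1 and 13 in n16-M/TC-2.

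Gabra4, which can pair with the delta subunit, was higher in most clusters of the axes than in n04. In n04 it was 11.4 ± 2.60 CPM and in n07-GC-2 74.6 ± 12.1 CPM, where the lowest library (53.96 CPM) was above the highest of n04 (14.5 CPM). The cluster n12 had 79.01 ± 26.3 CPM, n05 67.1 ± 17.6 CPM and n11 61.8 ± 13.2 CPM. In n03-GC-1 it was 19.2 ± 4.14 CPM, and in n09-GC-3 10.1 ± 11.8 CPM with no UMI in 3 libraries.

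**Figure D2:**
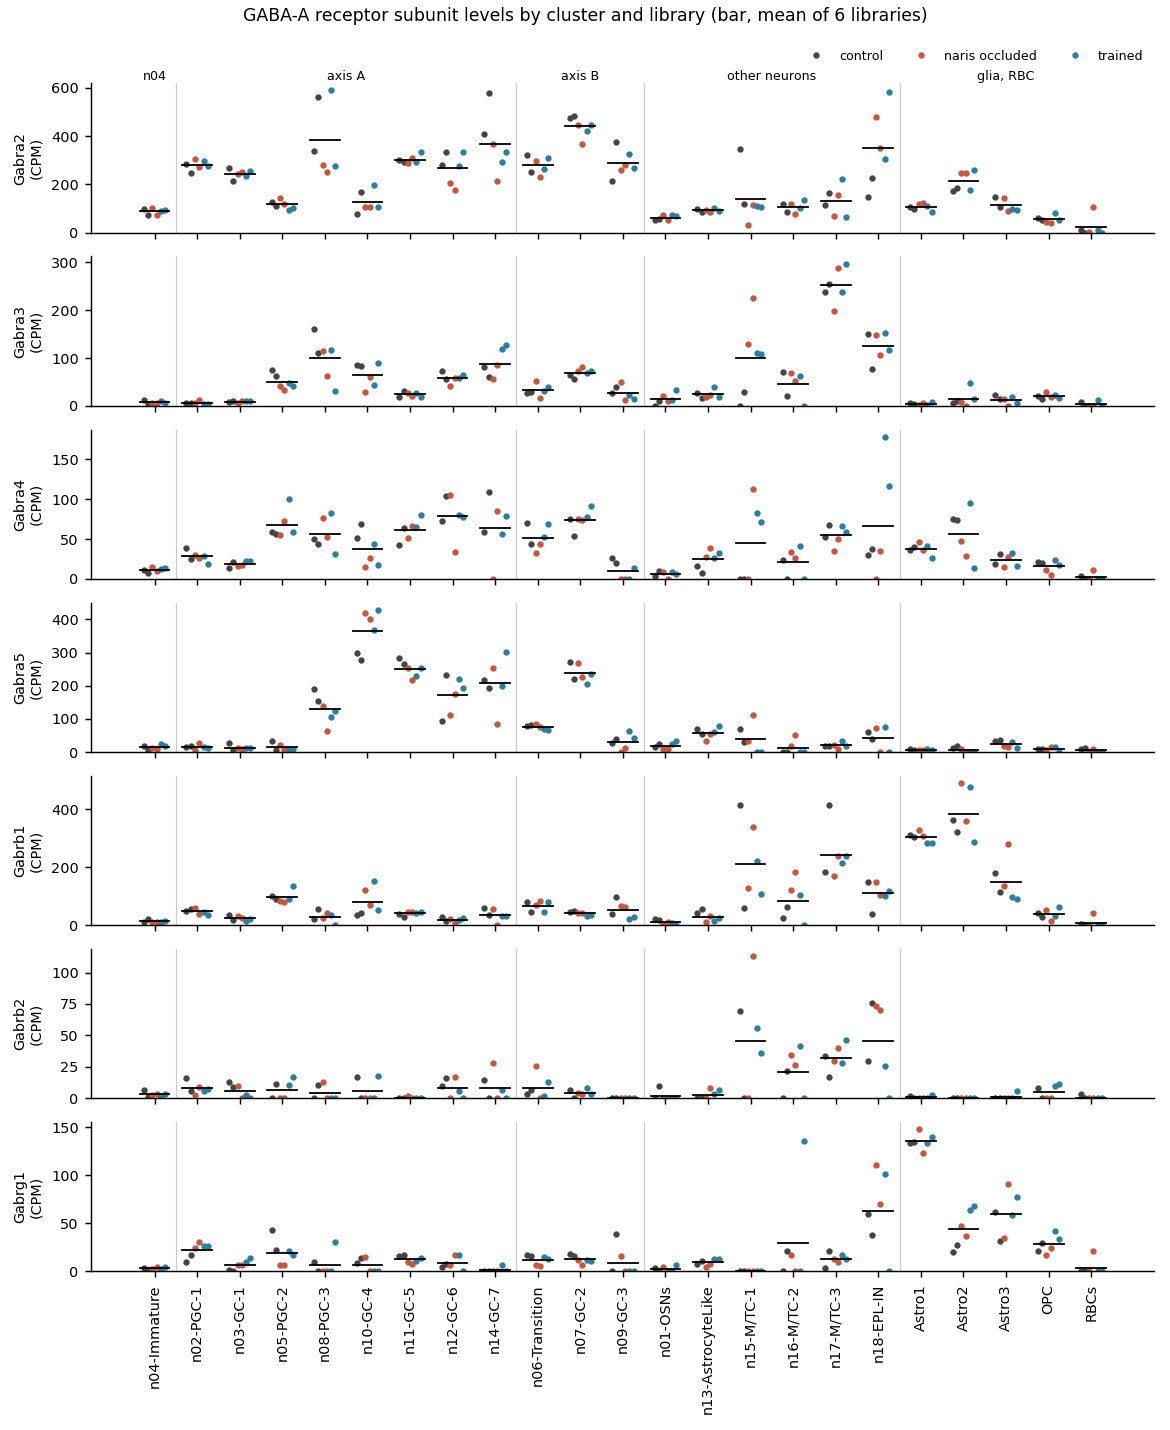
CPM of the 7 subunit genes in the 18 neuronal clusters (n04, axis A, axis B, other neurons), the 3 astrocyte clusters, oligodendrocyte precursors (OPC) and red blood cells (RBCs), with a point for each library coloured by condition and a bar for the mean. Gabra5 is low in n02, n03 and n05 and high in n10 (366 CPM), Gabra3 is highest in n17 (252 CPM), and Gabrb1 and Gabrg1 are high in Astro1 (303 and 136 CPM).

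The makeup of the UMIs of these 4 alpha genes differed between n04 and the axes. Gabra2 held 73.1 ± 4.57% of the summed UMIs of Gabra2, Gabra3, Gabra4 and Gabra5 in n04, 56.9 ± 1.53% in axis A and 56.6 ± 2.32% in axis B. Every library of both axes (at most 60.8%) was below every library of n04 (at least 66.4%), although the level of Gabra2 itself was higher there. This holds for UMIs summed over an axis: within the axes Gabra2 held 84.9 ± 3.34% in n02, 85.5 ± 1.57% in n03 and 80.98 ± 6.38% in n09, means above that of n04. Gabra5 held 11.9 ± 3.57% in n04, 26.7 ± 1.52% in axis A and 25.9 ± 1.99% in axis B, again with no overlap between libraries of n04 and of the axes. Gabra3 held 5.72 ± 1.86%, 6.37 ± 0.990% and 8.10 ± 0.914%, and Gabra4 9.26 ± 1.19%, 9.98 ± 0.999% and 9.44 ± 1.38%, which are within the spread of n04 except for Gabra3 in axis B. By cluster, Gabra5 held 4.56% in n03 and 4.73% in n02 but 61.6% in n10, Gabra4 reached 27.3% in n05, and in n17 Gabra3 held 55.8 ± 8.52%. The totals behind these shares were 71 to 172 UMIs per library in n04, 668 to 1204 in axis A and 315 to 840 in axis B. In n04 the shares of Gabra3, Gabra4 and Gabra5 rest on levels that were not told apart from background, as given above.

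**Figure D3:**
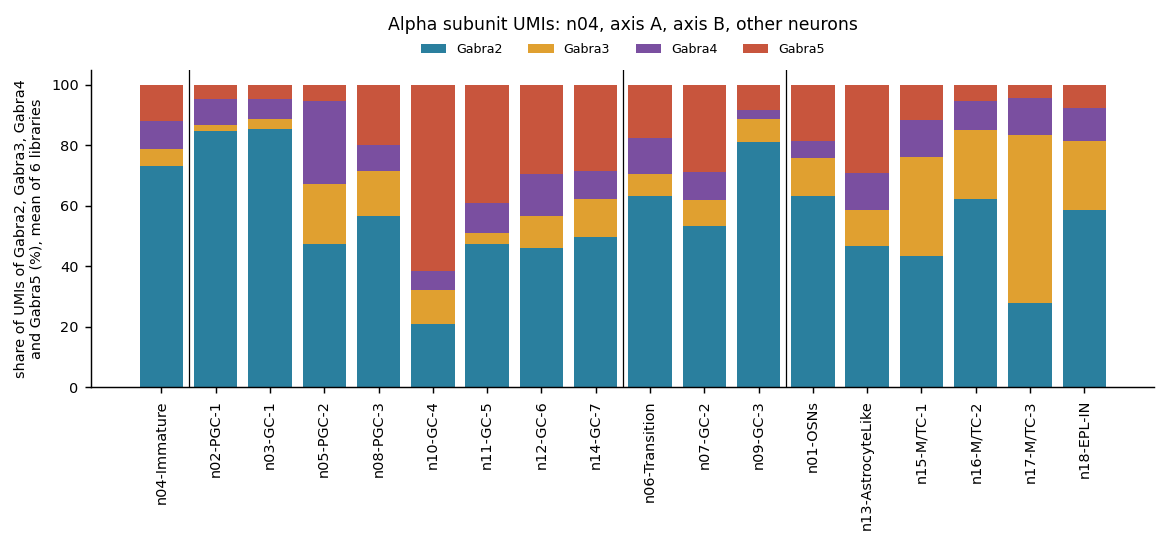
Share of the summed UMIs of Gabra2, Gabra3, Gabra4 and Gabra5 held by each of them, in percent, as the mean over 6 libraries in n04-Immature, the clusters of axis A, those of axis B and the other neurons. Gabra2 is the largest share in n04 (73.1%), Gabra5 in n10 (61.6%) and Gabra3 in n17 (55.8%).

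Gabrb1 was highest in the astrocyte clusters Astro1 and Astro2 and in 2 of the 3 M/T clusters. In Astro1 the lowest, median and highest library held 282, 305 and 328 CPM, and Astro2 (336 cells) held 383 ± 82.6 CPM. Astro3 was below both in the mean. Among neurons the M/T clusters n17 (243 ± 88.7 CPM) and n15 (212 ± 141 CPM, from 26 UMIs) had the highest means, while the M/T cluster n16 had 82.5 ± 67.1 CPM, below n18-EPL-IN (109.8 ± 40.7 CPM) in the mean. In n15 the summed markers of ensheathing cells (1739 ± 2251 CPM) were above its M/T markers (1435 ± 370.4 CPM) in the mean, and their part in its level was not tested. Among the clusters of both axes it was highest in n05-PGC-2 (96.5 ± 20.6 CPM), and it was 13.1 ± 5.06 CPM in n04. Gabra4, its head-to-head neighbour, was 37.7 ± 6.69 CPM in Astro1. The summed level of the astrocyte markers Gfap, Aqp4, Gja1 and Slc1a3 was 347 CPM in n17 and 6811 CPM in Astro1, and that of Gad1, Gad2 and Slc32a1 was 174 CPM in Astro1 and 124 CPM in red blood cells.

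Gabrb2 was found at low levels in M/T cells and in n18-EPL-IN, interneurons of the external plexiform layer. It was 45.9 ± 31.8 CPM in n18 (8 UMIs), 32.4 ± 10.3 CPM in n17 (46 UMIs) and at most 8.42 CPM in the clusters of n04 and both axes. In n17 every library had Gabrb2 UMIs, from 16.9 to 46.2 CPM, and the highest library of n04 was at 6.62 CPM. In astrocytes the gene was at or near 0, with 4 cells of 3130 in Astro1.

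Gabrg1 had its highest level in the astrocyte cluster Astro1. Astro1 held 123, 135 and 148 CPM in its lowest, median and highest library, while n04 held 1.28, 3.10 and 4.53 CPM. The other astrocyte clusters held 44.1 ± 19.4 CPM (Astro2, 336 cells) and 59.4 ± 23.3 CPM (Astro3, 1780 cells). Among neurons Gabrg1 was highest in n18-EPL-IN (63.4 ± 41.1 CPM, from 12 UMIs and with a library at 0), followed by n16-M/TC-2 (29.2 ± 53.4 CPM, from 3 UMIs and with 3 libraries at 0), n02-PGC-1 (22.6 ± 7.66 CPM) and n05-PGC-2 (19.5 ± 13.3 CPM). Of Astro1 cells 22.5% had a Gabrg1 UMI, and 6.45% after thinning, against 0.913% and 0.457% of red blood cells. For Gabrb1 the shares were 41.3% and 14.8% in Astro1 and 1.83% and 0.913% in red blood cells. The median depth was 1852 UMIs in Astro1, and the limit on the depth of red blood cells given above holds here too.

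Ordered by mean level over the 18 neuronal clusters, most neighbours did not differ beyond their spread. Of the 17 gaps between neighbours, 3 were larger than the larger SD for Gabra5, 1 each for Gabra2, Gabra3 and Gabra4, and 0 for Gabrb1, Gabrb2 and Gabrg1. For Gabra5 they separated n10 from n11, n08 from n06, and n06 from n13. The genes with the most similar pattern over the 18 clusters, by Pearson correlation of mean log2(CPM + 1) among 10677 genes of at least 20 CPM in a cluster, were Cspg5 (0.83), Chrm1 and Pcdh10 for Gabra2 and Cnnm1 (0.92), B4galt6 and Thy1 for Gabra3. They were Cdh22 (0.87), Chst11 and Gpr89 for Gabra4 and Tnfaip6 (0.88), Fam163b and Syt6 for Gabra5. For Gabrb1 they included Mfsd6 (0.83) and Grm7, for Gabrb2 Ndst4 (0.87), Abca5 and Hapln4, and for Gabrg1 Jade2 (0.87), Aldh3a2 and Bcr. Between the 7 genes themselves the correlations ran from -0.39 (Gabra5 with Gabrb2) to 0.62 (Gabrb1 with Gabrb2). All clusters share the 6 libraries, and the values are descriptions over 18 points.

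Of 9 other genes of the family taken from a list, 5 had a row, and Gabra6, Gabrp, Gabrr1 and Gabrr3 were not analysed here. Gabrd and Gabrg3 reached 10 CPM through the axes alone, with 4.63 and 2.73 CPM in n04, so that the filter fixed their direction and their ratios are a description. Gabrd, the subunit of extrasynaptic receptors, had ratios of 3.13 ± 0.60 on axis A and 4.39 ± 0.64 on axis B. Gabrg3, a gamma subunit gene, had 2.04 ± 0.67 and 1.85 ± 0.75. Of 8 genes of the inhibitory synapse and of receptor trafficking, 7 reached 10 CPM in n04 itself, of which 3 had a mean ratio of at least 1, and were higher in 6 of 6 libraries, on axis A and 4 on axis B, where 1 was lower, beside 17.4% and 24.7% higher of all genes. Gphn, the scaffold gephyrin, had ratios of 1.16 ± 0.33 and 1.17 ± 0.44, and Iqsec3, of the inhibitory postsynapse, 2.15 ± 0.25 and 2.10 ± 0.43. Shisa7, an auxiliary subunit at 8.96 CPM in n04, reached 10 CPM through the axes alone, and its ratios of 1.66 ± 0.77 and 3.31 ± 0.76 are a description. Gabarap, which takes part in receptor trafficking and autophagy, was the lower gene, with -1.51 ± 0.22 on axis B and -0.44 ± 0.10 on axis A. Slc12a5, the chloride exporter KCC2, had 2.60 ± 0.14 and 3.49 ± 0.19, and Slc12a2, the importer NKCC1, 0.71 ± 0.41 and 2.07 ± 0.36. Of the GABA-B receptor genes, Gabbr1 had 0.85 ± 0.24 and 1.28 ± 0.24. Gabbr2, at 6.60 CPM in n04, also reached 10 CPM through the axes alone, with 1.29 ± 0.54 and 1.27 ± 0.52.

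The study asks how olfactory experience acts on these cells, so the subunit genes were compared between conditions in 8 populations, namely n04, the axis A clusters n03, n05, n10 and n12, n07 of axis B, the 3 M/T clusters summed and the 3 astrocyte clusters summed. None of the 7 genes was called in any of them. Of the 56 combinations of gene and population, 34 passed the filter on low counts in each comparison, and 0 of 34 had an adjusted p under 0.05 by edgeR's quasi-likelihood test, under occlusion or under training. At an unadjusted p under 0.05 there was 1 of 34 under occlusion and 0 of 34 under training, and DESeq2 called 0 of 56 in both. Few genes of any kind were called. Under occlusion they were 0.107% of the genes tested in n04, 0.0715% in n03, 0% in n05, 0.0122% in n07, 0% in n10, 0.0335% in n12, 0.416% in M/T cells and 0.0191% in astrocytes. Under training they were 0% in n04, 0.0143% in n03, 0% in n05, 0.0608% in n07, 0% in n10, 0.1% in n12, 0.121% in M/T cells and 0.0287% in astrocytes. Both comparisons use the same control libraries. With 2 libraries per group an exact permutation test of a single gene cannot give a two-sided p under 0.333.

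Among the combinations that passed the filter, the largest change under occlusion was that of Gabra3 in n05-PGC-2. It was 88.96 and 74.2 CPM in the control libraries and 49.5 and 38.7 CPM in the occluded ones, after TMM scaling of the tested genes. The log2 fold change was -0.88 ± 0.57 (SE, edgeR adjusted p = 0.998), from 5 to 14 UMIs per library of these groups. Among those under training it was that of Gabrb1 in n03-GC-1, with 37.8 and 20.2 CPM in controls and 13.6 and 23.6 CPM in trained libraries. These groups overlapped, and the log2 fold change was -0.83 ± 0.55 (edgeR adjusted p = 0.98). It was -0.21 without control replicate 1, -0.38 without trained replicate 1 and between -1.18 and -0.83 without any other library, so that single libraries decided its size. Gabrg1 in n05 did not pass the filter, and without TMM scaling was 42.8 and 22.5 CPM in controls (8 and 4 UMIs) and 6.87 and 6.62 CPM in occluded libraries (1 UMI each), named after its values were seen. Gabra2 in n12-GC-6, named because it had the only unadjusted p under 0.05, was 342 and 416 CPM in controls and 240.2 and 215 CPM in occluded libraries. The occluded libraries were both lower, as groups did not overlap for 32.9% of the genes tested in n12, and the log2 fold change was -0.70 ± 0.26 (edgeR adjusted p = 0.74).

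Where the counts were deep, the standard errors (SE) were small. In n07 the log2 fold change of Gabra2 was -0.29 ± 0.17 under occlusion and -0.18 ± 0.17 under training, and that of Gabra5 was -0.06 ± 0.19 and -0.20 ± 0.19. In n04 the log2 fold change of Gabra2 was -0.01 ± 0.18 and 0.09 ± 0.18. In astrocytes that of Gabrb1 was 0.11 ± 0.12 and -0.20 ± 0.12, and that of Gabrg1 0.06 ± 0.14 and 0.09 ± 0.14. None of these passed the test. The astrocytes were 3 clusters summed, of which Astro3 gave 200 to 533 of the 654 to 1086 cells per library. The part of this mix in the astrocyte values was not tested. The ± values are SEs and not limits of detection. Gabra2 in n12, at -0.70 ± 0.26 under occlusion, was not called either, so shifts larger than these errors are not excluded.

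**Figure D4:**
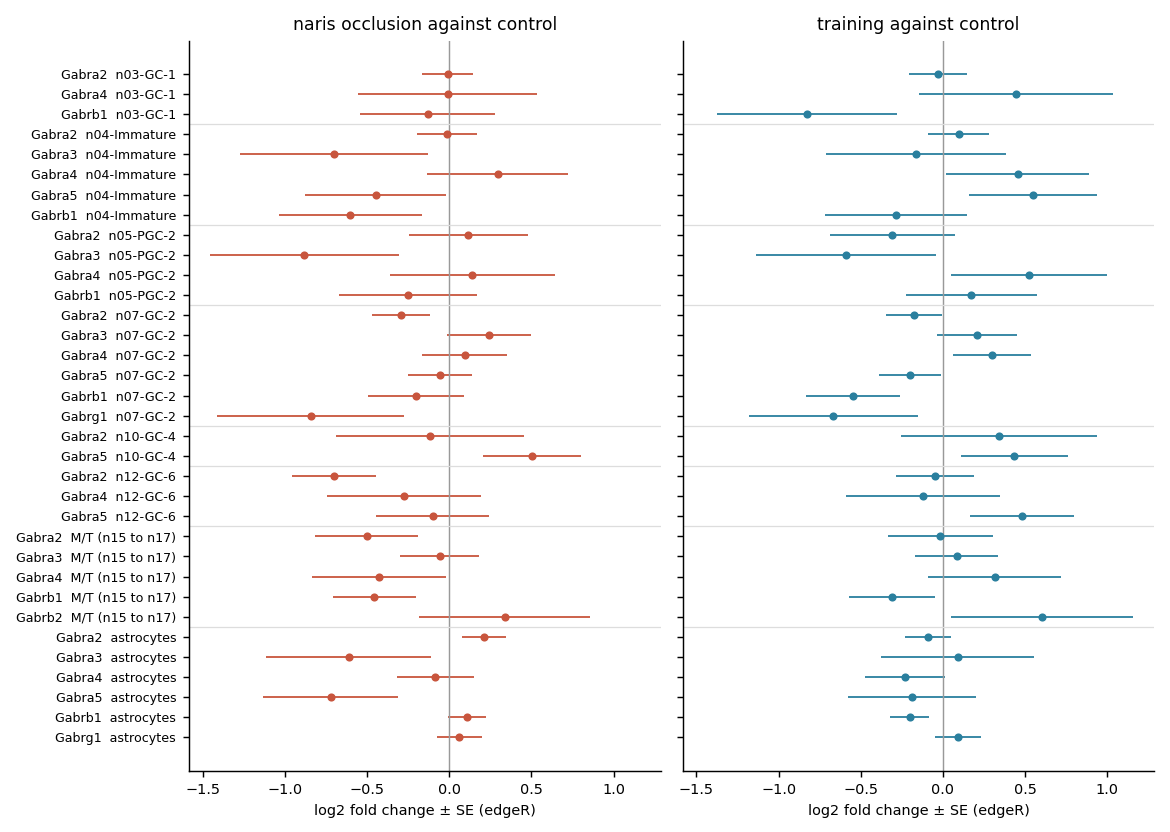
Log2 fold change ± SE from edgeR of each subunit gene that passed the filter, in 8 populations, for naris occlusion (left) and training (right) against the same 2 control libraries. The values lie between -0.88 and 0.60, and none had an adjusted p under 0.05.

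In M/T cells, where Gabra3 and Gabrb1 were high, neither was called. The CPM of the subunit genes in this paragraph are after TMM scaling of the tested genes, and those of the markers are not. Gabra3 was 239 and 218 CPM in control libraries, 185 and 267 CPM in occluded libraries and 212 and 278 CPM in trained libraries, and these groups overlapped. Its log2 fold change was -0.06 ± 0.24 under occlusion and 0.08 ± 0.25 under training (edgeR adjusted p = 0.976 and 0.988). Gabrb1 was 197 and 362 CPM in control, 167 and 249.9 CPM in occluded and 221 and 226 CPM in trained libraries, with the occluded libraries on both sides of the lower control. Its log2 fold change was -0.46 ± 0.25 under occlusion (edgeR adjusted p = 0.592). It was 0.05 without control replicate 2, -0.15 without naris-occluded replicate 1, -0.72 without naris-occluded replicate 2 and -0.85 without control replicate 1, so that its sign rested on control replicate 2. In n17 alone, fitted after these values were seen, it was -0.66 ± 0.29 (edgeR unadjusted p = 0.0317, adjusted p = 0.378), with 213 and 481 CPM in controls and 182 and 261 CPM in occluded libraries, where 0.501% of the genes tested were called. In n15 alone it was -0.06 ± 1.26 (edgeR unadjusted p = 0.96), from 2 to 6 UMIs per library of these groups. Gabrb2 was 35.9 and 17.6 CPM in control and 29.3 and 43.8 CPM in occluded libraries, and 38.2 and 46.4 CPM in trained ones, from 5 to 13 UMIs per library. Its log2 fold change was 0.34 ± 0.52 under occlusion and 0.60 ± 0.55 under training, where the groups did not overlap (edgeR adjusted p = 0.911 and 0.888). The summed level of the M/T markers Cdhr1, Tbx21, Eomes and Slc17a7 moved with the groups, at 4146 to 4368 CPM in control, 3272 to 3546 CPM in occluded and 3559 to 3596 CPM in trained libraries. Of the marker lists of 11 other cell types, 5 did not overlap between control and occluded libraries and 8 between control and trained ones, while of all genes tested in M/T cells 37.5% and 37.7% did not overlap. Summed Gad1, Gad2 and Slc32a1, of inhibitory neurons, were 297 to 394 CPM in control, 227 to 228 CPM in occluded and 476 to 616 CPM in trained libraries. Summed Sox10, Frzb and Npy, of ensheathing cells, were 1139 to 1165 CPM in control, 652 to 1105 CPM in occluded and 541 to 624 CPM in trained libraries. The part of these markers in the values of the subunit genes was not tested.

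Among the listed other genes of the family, 0 of 6 tested combinations were called by edgeR under either condition (0 and 1 at an unadjusted p under 0.05, and 0 of 28 by DESeq2). Gabrd, the listed gene with the most tested populations, had a log2 fold change of 0.02 ± 0.21 under occlusion in n07. The 1 with an unadjusted p under 0.05 was Gabrg3 in n07 under training, with a log2 fold change of 1.43 ± 0.68 (edgeR adjusted p = 0.733). Of the 12 genes for the inhibitory synapse, chloride transport and the GABA-B receptor, 0 of 77 tested combinations were called by edgeR under either condition (2 and 4 at an unadjusted p under 0.05, and 0 of 96 by DESeq2).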

How the data were processed

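Gene expression in single cells of the mouse olfactory bulb was measured by 10x Genomics droplet sequencing of 3′ ends, in 6 libraries of 3 groups. Per the labels, the authors aligned reads to mm10 and counted unique molecular identifiers (UMIs) with Cell Ranger 2.0.0, so that the deposited values are raw counts per gene and barcode. The authors kept barcodes with at least 200 genes, clustered them with Seurat 2.2.1 after log normalization, removed doublets and named the clusters. The authors' deposited fraction of mitochondrial UMIs per cell was read as a check. The deposited log-normalized table was not used, since the tests need counts.

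UMIs were summed per library and cluster from the authors' 2 annotations, for all 38 whole-bulb and 18 neuronal clusters, and no further cells were removed. CPM used all UMIs of the sum, and log2 ratios a pseudocount of 1 CPM. Conditions were compared with edgeR 4.0.16 (R 4.3.3) in each population, with TMM scaling, filterByExpr, all 6 libraries in the fit and Benjamini-Hochberg adjustment over all genes tested, called at an adjusted p under 0.05. DESeq2 1.42.0, other scalings and filters, cells of at least 1000 UMIs and leaving out each library were alternatives. The test was tried on simulated counts with known changes. The 2 libraries of a group are pools that differ in Xist and Ddx3y, so p-values measure the spread between such pools. All columns of the table matched a library.

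The 7 genes and the other lists were chosen with earlier results of these data known. The genes named are the 7 members in every cluster, the family, synapse, chloride transporter and GABA-B receptor lists, the 3 genes most alike each member, and in each comparison the member with the largest change. Some genes that these rules take are not reported here, and shares of alpha subunit UMIs were taken over Gabra2, Gabra3, Gabra4 and Gabra5. The cell names of trained libraries 1 and 2 are reversed against the library column of both annotations. The column was used, and it decides which trained library is replicate 1, and with it the match of number and sex, the correlations and the block by number. Libraries of the same number share a sex and a number, and the correlation of their deviations from the group means was -0.028 to 0.190. All 3 pairs were above 0.1 in n04 (0.137 to 0.187) and in astrocytes (0.119 to 0.180) but not in the other 6 populations, so the numbers were not taken as pairs over the populations. Gene starts and promoter windows were those of RefSeq on GRCm38, the build of the files, with 11 windows for the 7 genes.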

Additional observations from a re-analysis of the deposited data

Results flagged for a closer look

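Of 106 values of the 7 genes examined over 6 libraries (levels in neuronal clusters, ratios and shares), 6 (5.66%) had a library far from the others by Dixon's test, close to the 1 in 20 that chance gives. Control replicate 2 was the library apart in 4 of them. In it the log2 ratio of axis B over n04 was 2.43 for Gabra2, against 1.96 to 2.05 in the others, and the log2 ratio of axis A over n04 was 0.78 for Gabrb1, against 1.67 to 2.06. Its Gabrb1 level, without TMM scaling, was 27.0 CPM in n11-GC-5, against 39.9 to 46.4 CPM, and 414 CPM in n17-M/TC-3, against 169 to 238 CPM. Gabra2 was 346 CPM in control replicate 1 in n15-M/TC-1, against 32.1 to 119 CPM, and Gabrg1 was 136 CPM in trained replicate 2 in n16-M/TC-2, against 0 to 21.4 CPM. Both clusters hold few cells (90 and 116).

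The subunit genes were also found in the 1123 barcodes without a cluster, where 3 UMIs stand for 0.994 CPM. Gabra2 was 166 CPM there (501 UMIs), Gabrb1 80.8 CPM, Gabra5 42.7 CPM, Gabrg1 27.8 CPM, Gabra4 26.5 CPM and Gabra3 19.5 CPM. Gabrb2 was 2.98 CPM (9 UMIs).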

How the results depend on the processing

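Of 182 alternative values for the log2 ratios of the 7 genes, 176 stayed within the spread of the reported value and its sign, and 103 of 108 shares of the 4 alpha genes did. Values that leave out 1 library are means over the rest of the same libraries, which cannot move by that spread. Both counts therefore hold many values that could not fail, and are no measure of robustness. Gabra2 on axis A had 1.32 under TMM factors, Gabra3 on axis A 2.71 and Gabra4 on axis B 1.91 with the axis as the unweighted mean of its clusters, and a pseudocount of 5 CPM gave 2.05 for Gabra4 on axis B and 1.06 for Gabrg1 on axis A. Gabrb2 on axis B turned to -0.25 with cells of at least 1000 UMIs. Controls alone gave a share of 6.95% for Gabra3 in axis B and 8.004% for Gabra4 in n04, means over single cells gave 8.87% for Gabra4 in axis A, and cells of at least 1000 UMIs gave 59.4% for Gabra2 and 22.7% for Gabra5 in axis B. The causes were not tested.

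No alternative called any of the 7 genes (26 of 26 counts at 0). Calls over all genes, 43 under occlusion and 19 under training, were 8 and 8 by DESeq2, 110 and 88 with no filter on low counts, and 26 and 30 with cells of at least 1000 UMIs. With the replicate number as a block they were 59 and 41, and with a block by the numbers in the trained cell names 45 and 38. In n04, where same-numbered libraries deviated together, the block gave 17 calls under occlusion and 2 under training, against 10 and 0 without it, and in astrocytes 2 and 7 against 2 and 3. None was one of the 7 genes. They ranged from 36 to 116 and from 24 to 103 when 1 library was left out. Under occlusion the counts were 95 without naris-occluded replicate 1, 116 without replicate 2 of that group, 109 without trained replicate 1 and 110 without trained replicate 2. Under training they were 67 and 64 without naris-occluded replicates 1 and 2, and 58 and 103 without trained replicates 1 and 2. The other listed genes of the family had 0 calls in 26 of 26 counts. Without 1 library the log2 fold change of Gabrb1 in M/T cells under occlusion ranged from -0.85 to 0.047, turning sign without control replicate 2. A lone library left in a group was assumed to vary like the other groups.

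Depth limits the low genes most: Gabrb2 had 23 UMIs and Gabrg1 22 UMIs in n04, and 22 of 56 combinations of gene and population did not pass the filter. Intervals cover counting error and the spread between these pools only.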

Other observations

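Oligodendrocyte precursors (OPC) held UMIs of several of the subunit genes, with Gabra2 at 54.9 ± 14.3 CPM, Gabrb1 at 38.9 ± 17.1 CPM, Gabrg1 at 28.1 ± 9.19 CPM, Gabra3 at 20.8 ± 5.07 CPM and Gabra4 at 16.3 ± 6.98 CPM (SD, n = 6), from 20 to 67 UMIs each. Every library of OPC held UMIs of these 5 genes. As deposited, 13.3%, 8.56%, 7.81%, 6.30% and 5.04% of OPC cells had a UMI, against 5.02%, 1.83%, 0.913%, 1.37% and 0.913% of red blood cells. The median depth was 2901 UMIs in OPC and 3894 in red blood cells, most of the latter from hemoglobin genes, so the background is not at equal depth. After thinning to 500 UMIs they were 2.02%, 1.01%, 1.51%, 0.756% and 0.504%, all within the exact 95% intervals of the red blood cell shares. These intervals are wide, as few of the 219 red blood cells held a UMI after thinning. The comparison thus cannot decide whether OPC were above background at that depth. In the astrocyte cluster Astro2 (336 cells), Gabra2 was 214 ± 41.6 CPM and Gabra4 55.8 ± 31.04 CPM, while Gabrg1 was 44.1 ± 19.4 CPM, below the 136 CPM of Astro1. Olfactory ensheathing cells (OEC), the glia that wrap the sensory axons, were low for all 7 genes, with Gabra2 in OEC3 (3240 cells) the highest mean (28.97 ± 12.5 CPM). Gabra3 was 25.1 ± 7.02 CPM in OEC1 (127 UMIs) and 5.01 ± 1.11 CPM in OEC2 (1740 cells, 21 UMIs). Gabrg1 was 12.4 ± 1.73 CPM in OEC1 (63 UMIs) and 17.03 ± 7.72 CPM in OEC2 (1740 cells, 72 UMIs).

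The cluster n18-EPL-IN, of 161 cells, held UMIs of all 7 genes. Its summed markers of inhibitory neurons were 2835 ± 626 CPM and those of ensheathing cells 3483 ± 4876 CPM, and the part of the latter in these levels was not tested. Gabra2 was 349.5 ± 160.0 CPM, Gabra3 125 ± 30.8 CPM, Gabrb1 109.8 ± 40.7 CPM, Gabra4 66.4 ± 67.2 CPM and Gabra5 41.3 ± 34.8 CPM, with 1 library at 0 for Gabra4 and 2 for Gabra5. In n13-AstrocyteLike, which the authors placed among neurons, Gabra2 was 93.3 ± 6.30 CPM and Gabrb1 29.9 ± 16.7 CPM, against 303 CPM for Gabrb1 in Astro1. The summed astrocyte markers were 513 CPM in n13 and 6811 CPM in Astro1, and in n13 the summed markers of sensory neurons (2221 ± 354 CPM), ensheathing cells (1316 ± 494 CPM), inhibitory neurons (891 ± 195 CPM) and myelinating oligodendrocytes (641 ± 174 CPM) were higher than those of astrocytes, and 30.5% of the UMIs of n13 were mitochondrial.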
